A study of Mus musculus with 9 samples.

Results

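Fibroblast-like cells were a minority among the dissociated retina cells of 4 control and 5 dKO mice, and 420 of 31089 cells (1.35%) met the rule that defines them. A cell was taken as fibroblast-like when at least 3 of the 5 genes Dcn, Apod, Lama2, Itgbl1 and Gfpt2 had 1 or more UMIs (unique molecular identifiers, each marking 1 captured RNA molecule). The 5 genes also had to sum to at least 5 per 10000 UMIs, and the glial genes Slc1a3 and Aqp4 had to stay below 5 per 10000 together. Of 454 cells with 3 or more markers, 19 were left out by the sum and a further 15 by the glial genes. Among the cells kept, 83 had 3 markers, 174 had 4 and 163 had all 5. The lowest marker sums inside the rule were 5.80, 6.68 and 6.71 per 10000, the median was 54.7 and the highest 323. Just outside it, the highest sums among the 12 cells left out by the sum alone were 4.52, 2.63 and 2.59 per 10000. For Slc1a3 plus Aqp4, the highest cell inside had 4.94 per 10000 and the lowest cell outside 5.18, while 334 of the 420 cells had no UMI of either gene.

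Fibroblasts are the connective tissue cells that secrete and remodel collagen, proteoglycans and elastic fibres. In the eye they lie in the sclera, choroid, ciliary body, iris stroma, trabecular meshwork, corneal stroma and the sheath of the optic nerve, and much of this tissue derives from the neural crest through the periocular mesenchyme. The neural retina itself holds few of them.

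Every mouse carried RPE65-ERT2-Cre together with floxed miR-211 and floxed miR-204 (RPE65-ERT2-Cre.miR-211fl.miR-204fl), so the groups shared all alleles and differed by the injected agent. From postnatal day 28 the dKO mice received 75 mg/kg tamoxifen in corn oil on 5 days, and the controls received corn oil alone. Exposure to tamoxifen and the deletion therefore cannot be told apart in this comparison. The paper names tamoxifen-treated Cre-negative animals as its controls, whereas the sample titles name corn oil. It reported that retinal phenotypes were alike in such animals and in Cre-positive animals given vehicle. Cells were taken 6 months after induction. Cre in this line is driven from Rpe65, a gene of the retinal pigment epithelium (RPE), and needs tamoxifen to act, so the deletion was directed at the RPE and not at fibroblasts. Each sample pooled both retinas of 1 mouse, peeled from the eyecup after the anterior part of the eye had been removed. The labels give dKO samples S06 and S07 the same animal number.

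The microRNAs deleted in the dKO are shown because they set its treatment apart from the control. They are given 5′ to 3′ from the RefSeq annotation of GRCm38.p6, with the seed (bases 2 to 8) in capitals.
mmu-miR-204-5p: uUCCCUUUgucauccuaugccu
mmu-miR-211-5p: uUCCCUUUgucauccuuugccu
Both share the seed and differ by A17U, with positions counted from 1 at the 5′ end of miR-204-5p. Mature microRNAs were not measured in these libraries. Of the genes in whose introns they lie, Trpm3 averaged 311 ± 93.1 CPM in fibroblast-like cells (UMI counts scaled to a common total, mean ± SD over 6 mice, as for all levels below). RPE-like cells averaged 17484 CPM of Trpm3. Trpm1 averaged 47.1 ± 5.86 CPM in fibroblast-like cells. With the cells of very high UMI count included, the Trpm3 level was 545 CPM.

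Samples S04, S05 and S07 stood apart from the others. Rod-like cells made up 90.4%, 77.3% and 83.7% of their cells, against 33% to 46.7% in the other 6 mice. Their median depth was 4775, 4863 and 5412.5 UMIs per cell, against 8118 to 10340 elsewhere, and RPE-like cells numbered 0, 7 and 19 against 54 to 88. Since these 3 samples held 1, 0 and 1 fibroblast-like cells, gene levels were compared in the 6 mice with 10 or more such cells. All 31089 cell names were distinct. Xist lay between 1121 and 1437 CPM and Uty at 5.06 CPM or less in all 6 mice.

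The share of fibroblast-like cells differed widely between mice of both groups and did not differ between the groups beyond that spread. Of the control mice, S01 had 28 cells (0.678% of its cells), S02 had 27 (0.699%), S03 had 106 (3.27%) and S04 had 1 (0.0369%). Of the dKO mice, S05 had 0 of 1620, for which 3 counts would be 0.185% and the exact 95% interval reaches 0.227%. S06 had 56 (1.35%), S07 had 1 (0.0213%), S08 had 139 (4.34%) and S09 had 62 (1.78%). The ranges overlapped, and in each group 1 mouse supplied the most cells. Control mice averaged 1.17% ± 1.43 (SD, n = 4) while the dKO average was 1.50% ± 1.78 (SD, n = 5), and a two-sided exact permutation test over 126 regroupings gave p = 0.778. Counted among cells that did not meet the rod rule, the means were 2.00% and 2.33% (exact permutation p = 0.802). In the 6 mice with 10 or more of the cells, the means were 1.55% ± 1.49 and 2.49% ± 1.62 (n = 3 each, exact permutation p = 0.5 over 20 regroupings, a number too small to reach 0.05). The sign of the difference rested on single mice: it was -0.0512 percentage points without S04 and -0.384 without S08.

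**Figure D1:**
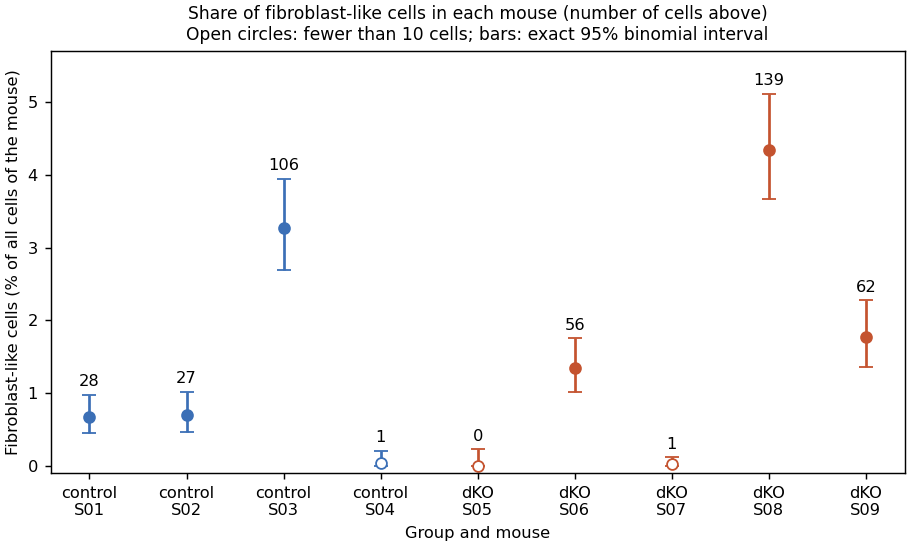
Fibroblast-like cells as a percentage of all cells in each of the 9 mice, with exact 95% binomial intervals that cover counting error only. The number above each point is the count of fibroblast-like cells, open circles are the 3 mice with 1, 0 and 1 of them, and control S03 (3.27%) and dKO S08 (4.34%) are the highest mice of their groups.

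UMIs per fibroblast-like cell ran from 1495 to 189314 with a median of 8443.5, and the median number of genes detected was 2831.5. Summed over its fibroblast-like cells, a compared mouse gave between 253973 (S02) and 1154913 UMIs (S08). Only 5 cells exceeded 30000 UMIs, and the largest, with 189314, supplied 40.6% of the fibroblast-like UMIs of S01. The second largest, with 136296, supplied 16.2% of those of S06. Levels are therefore given over the 413 cells of at most 30000 UMIs in the 6 mice, whereas the comparison of dKO with control kept all 418 cells and is given without the 5 large cells as well. Levels are compared between mice or between classes of cells for 1 gene at a time, because CPM is not scaled to transcript length.

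The rule's own genes are given as a description, since they chose the cells. Dcn encodes decorin, a small proteoglycan that binds collagen fibrils (GRCm39 chromosome 10, 97315275 to 97358155, plus strand). It was at 1341, 992 and 1001 CPM in the controls and 991, 944 and 1407 CPM in the dKO mice (S01, S02 and S03, then S06, S08 and S09, the order used throughout). The groups overlapped, and pericyte-like cells averaged 12.7 CPM. Apod encodes a secreted lipid carrier (chromosome 16, 31115010 to 31135355, minus strand) and averaged 1738 ± 447 CPM. Lama2, a laminin chain of basement membranes (chromosome 10, 26856032 to 27495754, minus strand), averaged 1628 ± 288 CPM, and was also at 869 CPM in pericyte-like and 112 CPM in Müller glia-like cells. Itgbl1 (chromosome 14, 123897383 to 124215765, plus strand) averaged 742 ± 158 CPM. Gfpt2, an enzyme of hexosamine synthesis (chromosome 11, 49684950 to 49729456, plus strand), averaged 977 ± 281 CPM.

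Markers that the rule did not use were in keeping with the fibroblast label. Pdgfra, the receptor that marks most fibroblast lineages (chromosome 5, 75311994 to 75358876, plus strand), was at 357, 311 and 660 CPM in the controls and 634, 608 and 694 CPM in the dKO mice. Its mean of 544 CPM stood beside 1.74 CPM in pericyte-like and 0.618 CPM in endothelial-like cells. Col1a1, a chain of type I collagen (chromosome 11, 94827050 to 94843868, plus strand), was at 656, 339 and 263 CPM in the controls and 255, 286 and 266 CPM in the dKO mice. Control S01 lay above the other 5 mice. Col3a1, the chain of type III collagen (chromosome 1, 45350698 to 45395840, plus strand), averaged 535 ± 126 CPM against 52.8 CPM in pericyte-like cells. Of 20 pan-fibroblast genes, 14 reached 50 CPM over the pooled cells, 19 were higher than in pericyte-like cells, and 18 were at least 10 times the level in all cells outside the rule. Those below 50 CPM were Pdgfrl, Dpt, Ly6a, Thy1, Twist2 and Meox1.

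Markers of other cell types set limits to the label. Of the 420 cells, 71 also met the pericyte rule (at least 3 of 5 pericyte markers), 4 the endothelial rule and 7 the rod rule, and none met the RPE, microglia or Müller glia rules. Slc1a3 and Aqp4 are also markers in the Müller glia rule. Since the fibroblast rule limits both, the lack of overlap with Müller glia was partly fixed in advance. In all, 339 cells met no other rule. Rgs5, a regulator of G protein signalling abundant in pericytes, averaged 535 ± 99.5 CPM against 7117 CPM in pericyte-like cells, and 437 CPM once cells that met another rule were left out. Kcnj8, a potassium channel subunit of pericytes, was at 4.18 CPM against 192 CPM. The receptor Notch3 was at 49.2 against 1686 CPM. Among 5 smooth muscle markers, Acta2 was at 6.74 CPM, Myh11 at 3.18 CPM and Cnn1 had no UMI. With Tagln and Des, the 5 summed to 10.8 to 83.9 CPM in the controls and 40.5 to 118 CPM in the dKO mice. The 5 pericyte markers summed to 685 to 1190 CPM in the 6 mice, and 4 of them reached 50 CPM. Summed over their lists, 5 RPE markers ran from 19.0 to 46.9 CPM in the 6 mice, 6 melanocyte markers from 2.71 to 16.9 CPM and 5 Schwann cell markers from 3.94 to 89.4 CPM.

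RNA of rods and neurons was present in these cells. Sag, the arrestin of rods, averaged 274 ± 154 CPM, against 4405 CPM in rod-like and 198 CPM in pericyte-like cells. The summed level of the 5 rod markers ran from 452 to 1524 CPM in the controls and from 554 to 674 CPM in the dKO mice, and the controls S01 and S02 were the highest. In the 6 mice, 30 cells carried 10 or more UMIs of neuronal markers per 10000, and their median depth was 15549 UMIs against 8190.5 in the others. No doublet caller was run, so some cells of high depth or with RNA of a second class may be doublets.

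**Figure D2:**
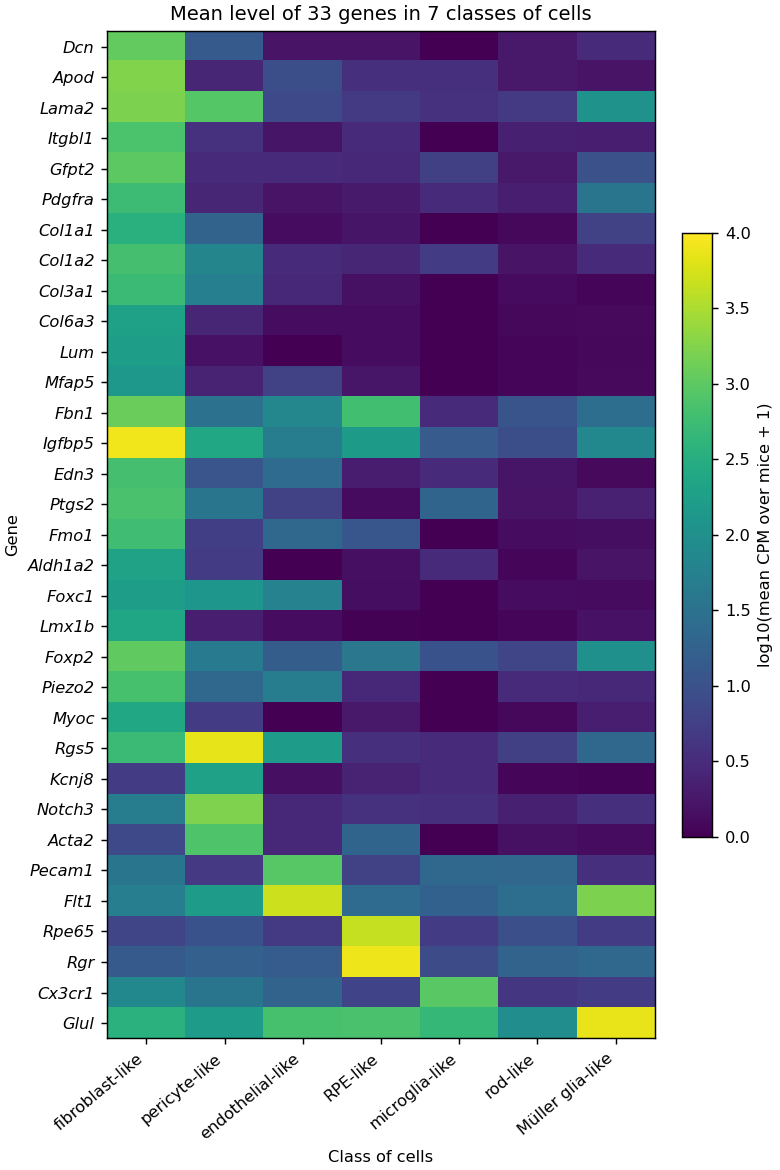
Mean CPM over mice, as log10(CPM + 1), of 33 genes (rows) in fibroblast-like cells and 6 other classes of cells (columns), where a class was averaged over the mice with 10 or more of its cells. Collagen and rule genes are bright in the first column, Rgs5 is brightest in pericyte-like cells (7117 against 535 CPM), and Kcnj8, Acta2, Rpe65 and Rgr are dark in fibroblast-like cells.

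The genes that set these cells furthest apart included matrix genes, hormones and enzymes. Among 2081 genes with at least 100 CPM and a UMI in 20% or more of the cells, 274 were at least 10 times and 86 at least 50 times the level in the cells outside the rule. Among the 20 largest ratios were those of the rule genes Apod, Dcn and Itgbl1, and of Col3a1, Lum, Edn3, Gm49767, Lbp, Ptgs2, Myoc, Fmo1, Col6a3, Aox3, Aldh1a2, Lmx1b, Col1a1, Lox, Pi16 and Cxcl1. The ratio was 605 for Col3a1, 542 for Edn3 and 439 for Myoc. Since the cells were chosen by expression, these ratios describe them and were not tested.

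Edn3 encodes endothelin 3, a peptide hormone that acts on neural crest derived melanocytes (chromosome 2, 174602088 to 174625835, plus strand). It was at 736, 642 and 636 CPM in the controls and 573, 616 and 721 CPM in the dKO mice. The groups overlapped, and the next highest class, endothelial-like cells, averaged 23.9 CPM. Its mean was 654 CPM, and 580 CPM with the large cells included. Ptgs2, the inducible cyclooxygenase of prostaglandin synthesis, averaged 703 ± 212 CPM against 34.8 CPM in pericyte-like cells. Fmo1 (585 ± 252 CPM) and Aox3 (434 ± 91.5 CPM) encode oxidases of foreign compounds, and Lbp (297 ± 71.4 CPM) a binding protein for bacterial lipopolysaccharide. Aldh1a2, which makes retinoic acid, averaged 204 ± 62.8 CPM against 4.06 CPM in pericyte-like and 0.445 CPM in RPE-like cells. To compare shares of cells across depths, every cell was thinned to 3000 UMIs, which left out 6 fibroblast-like and 3287 rod-like cells. An Edn3 UMI was then found in 67.3% of fibroblast-like and 0.124% of rod-like cells, against 85.0% and 0.195% unthinned at median depths of 8443.5 and 4767 UMIs.

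Structural collagens were a broad matrix program. Of 12 fibrillar and associated collagens, 11 reached 50 CPM and 9 were at least 10 times the level outside the rule. Col1a2, the second chain of type I collagen (chromosome 6, 4504814 to 4541555, plus strand), was at 862, 791 and 611 CPM in the controls and 575, 609 and 536 CPM in the dKO mice. The controls held the highest values, although S03 and S08 nearly met. With all cells kept, 3.37% of all genes tested had groups without overlap and lower in dKO. Col12a1, a collagen that associates with fibrils, ranged from 261 to 1251 CPM. Col5a2 (288 ± 29.1 CPM) and Col6a2 (149 ± 12.5 CPM) varied less between mice. Col6a3, a chain of the microfibrillar type VI collagen, was at 193 ± 47.4 CPM and at 1.74 CPM in pericyte-like cells. The type VIII genes Col8a1 (330 CPM) and Col8a2 (58.8 CPM) were lower than in RPE-like cells, at 2341 and 630 CPM.

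Of 20 elastic fibre genes, 13 reached 50 CPM and 19 were higher than in pericyte-like cells. Fbn1, which encodes fibrillin 1 of the ciliary zonule and connective tissue, was at 1489, 1457 and 816 CPM in the controls and 1082, 1131 and 1403 CPM in the dKO mice. The groups overlapped, and RPE-like cells averaged 605 CPM. Fbn2 averaged 406 CPM in fibroblast-like and 0.938 CPM in RPE-like cells, so the other fibrillin was not shared with the RPE. The microfibril gene Mfap5 averaged 135 ± 41.6 CPM and the cross-linking enzyme Lox 187 ± 84.1 CPM. Basement membrane genes were shared with vessels, with 10 of 18 at 50 CPM or more but only 4 of 18 above their level in pericyte-like cells. The type IV collagen Col4a1 averaged 379 CPM in fibroblast-like, 422 CPM in pericyte-like and 542 CPM in endothelial-like cells. Among 11 small leucine-rich proteoglycans besides Dcn, Lum (171 ± 49.2 CPM), Bgn (293 ± 75.1 CPM), Ogn (107 CPM) and Prelp (161 CPM) reached 50 CPM. Kera, the keratocan of corneal stroma, had UMIs in 0.242% of the cells and in control S01 alone.

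Proteases and their inhibitors followed, with 15 of 21 at 50 CPM or more. Timp3, the inhibitor deposited in Bruch's membrane, averaged 2264 ± 597 CPM and was higher in RPE-like cells at 7413 CPM. Timp2 averaged 567 ± 57.4 CPM, the gelatinase Mmp2 165 ± 76.2 CPM and the membrane protease Mmp14 180 ± 41.3 CPM. The stromelysin Mmp3 was at 122 CPM in control S03 and 15.2 to 50.5 CPM in the others. Of 15 genes of activated fibroblasts, 6 reached 50 CPM. The matricellular gene Ccn2 averaged 833 ± 220 CPM, while Acta2, Cthrc1 and Lrrc15 were at 6.74, 1.16 and 0.301 CPM.

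**Figure D3:**
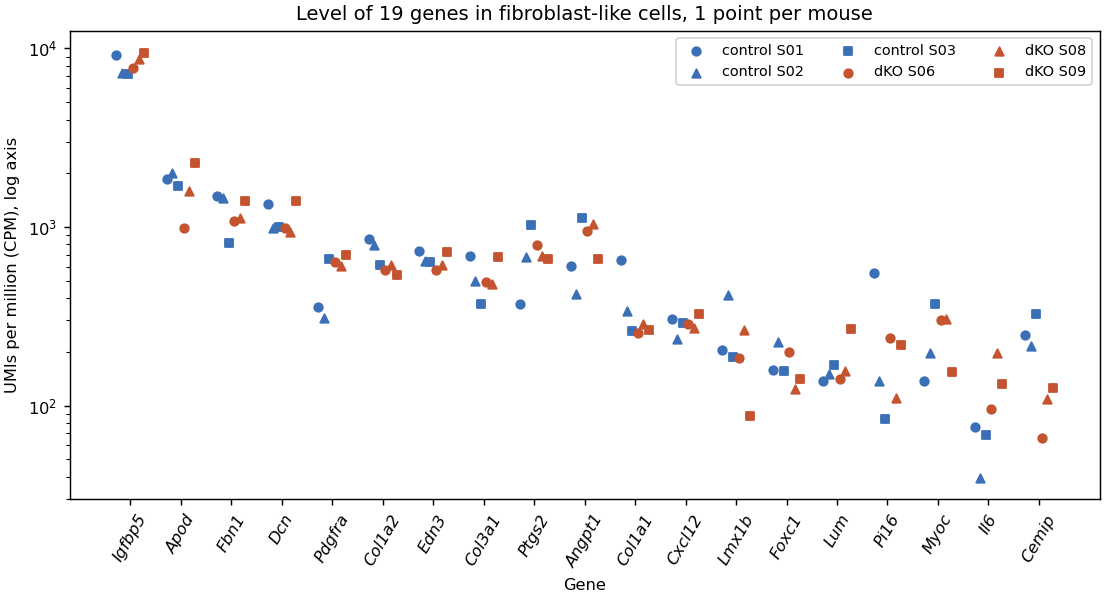
CPM in fibroblast-like cells of 19 genes, with 1 point for each of 3 control and 3 dKO mice on a log axis, to be read between mice within a gene. Edn3 and Cxcl12 vary little, and Pi16 (83.9 to 555 CPM) and Lmx1b (87.5 to 417 CPM) vary more. Groups do not overlap for Il6, higher in dKO, and for Col1a2 and Cemip, lower in dKO. With all cells kept, groups did not overlap for 4.52% of all genes tested in the higher direction and 3.37% in the lower.

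Among secreted signals, Igfbp5, an IGF binding protein stored in the matrix (chromosome 1, 72897091 to 72914043, minus strand), was at 9191, 7320 and 7145 CPM in the controls and 7812, 8723 and 9485 CPM in the dKO mice. A UMI was found in 99.5% of the cells, or 99.0% after thinning against 1.81% of rod-like cells, and the level was 249 CPM in pericyte-like cells. Every mouse was thus far above the pericyte-like mean. Igf1 itself was at 70.9 CPM and its receptor Igf1r at 750 ± 72.3 CPM, near Igf1r in RPE-like cells at 703 CPM. Angpt1, the ligand that steadies endothelial cells through the Tie2 receptor, averaged 801 ± 279 CPM against 256 CPM in pericyte-like cells. Vegfa averaged 91.6 CPM, below Müller glia-like cells at 418 CPM. The receptor Fgfr1 averaged 826 ± 256 CPM against 5.37 CPM in rod-like cells. Fgfr2 averaged 1040 ± 126 CPM against 1147 CPM there.

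Among TGF-beta, BMP and activin genes, 17 of 32 reached 50 CPM. The co-receptor Tgfbr3 averaged 338 ± 63.6 CPM, the receptor Tgfbr2 272 ± 29.6 CPM, the effector Smad3 334 ± 113 CPM and the secreted Fstl1 663 ± 146 CPM. Tgfb2, an isoform found in aqueous humour, was lower (111 CPM) than in Müller glia-like cells (527 CPM). Bmp6 ranged from 65.1 CPM in S08 to 410 CPM in S06. Gdf11, a ligand of the same family, was at 9.55 CPM. Of 21 Wnt ligands and modulators, 4 reached 50 CPM, namely Wnt5a (96.5 CPM), the antagonist Dkk2 (289 ± 120 CPM), Dkk3 (111 CPM) and the agonist Rspo2 (75.8 CPM). In the retinoid list, 4 of 14 did so: the synthetic enzymes Aldh1a1 (133 CPM), Aldh1a2 and Rdh10 (86.6 CPM), and the receptor Rarb (721 ± 94.5 CPM).

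Of 27 transcription factors of the periocular mesenchyme, 11 reached 50 CPM. Foxc1, a factor needed for the anterior segment (chromosome 13, 31990616 to 31996459, plus strand), averaged 168 ± 38.7 CPM, near pericyte-like cells at 124 CPM. Lmx1b, the nail-patella gene (chromosome 2, 33450977 to 33531093, minus strand), was at 206, 417 and 187 CPM in the controls and 184, 266 and 87.5 CPM in the dKO mice. Its level differed widely between mice of the same group, and it was 1.16 CPM in pericyte-like cells. Ebf1 averaged 1133 ± 267 CPM but 4830 CPM in pericyte-like cells. Of 19 genes of leptomeningeal and perivascular fibroblasts, 6 reached 50 CPM, and among these Foxp2 averaged 1068 ± 133 CPM and Bnc2 646 CPM. Slc6a13 (0.733 CPM) and Ptgds (9.58 CPM) were low and Slc22a6 had no UMI.

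In the complement list 9 of 15 measured genes reached 50 CPM, among them the regulator Serping1 (340 ± 46.9 CPM), the protease C1s1 (206 ± 18.7 CPM) and C3 (116 ± 51.6 CPM). In pericyte-like cells Serping1 was at 91.1 CPM and C3 at 1.40 CPM. Of 20 chemokines, cytokines and receptors, 9 reached 50 CPM. Cxcl12, which retains leukocytes, averaged 287 ± 30.2 CPM, below endothelial-like cells at 797 CPM. The neutrophil chemokine Cxcl1 averaged 119 CPM, the eosinophil chemokine Ccl11 68.4 CPM and Osmr, the receptor of oncostatin M, 1078 ± 163 CPM. Osmr was higher in RPE-like cells (1494 CPM) and lower in pericyte-like (309 CPM) and endothelial-like cells (312 CPM). Of 14 histocompatibility and interferon genes 7 reached 50 CPM, with Irf1 at 808 ± 131 CPM and Gbp2 at 366 ± 154 CPM.

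Immediate early genes, which respond within minutes to dissociation and other stimuli, were higher than in pericyte-like cells for 12 of 15. Fos averaged 1635 ± 240 CPM, against 940 CPM in pericyte-like, 611 CPM in endothelial-like and 38.3 CPM in rod-like cells. Fosb (2483 ± 525 CPM), Egr1 (1874 ± 261 CPM) and Jun (1369 ± 128 CPM) followed the same order. The summed level of the list ran from 10201 to 12553 CPM in the controls and from 10191 to 10609 CPM in the dKO mice, so the groups overlapped. Among glucocorticoid targets, control S02 was above the others for Fkbp5 (669 against 155 to 220 CPM) and Zbtb16 (1543 against 317 to 606 CPM).

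Of 26 guidance and adhesion genes, 23 reached 50 CPM. Slit3 (952 ± 249 CPM) and Ntn1 (552 ± 126 CPM), both secreted guidance cues, were at 2.45 and 0.945 CPM in rod-like cells. Cdh11, the cadherin of mesenchymal cells, averaged 1047 ± 133 CPM, and the neural cadherin Cdh2 was lower than in Müller glia-like cells (54.4 against 2151 CPM). Piezo2, a channel that opens on mechanical force, averaged 689 ± 59.4 CPM against 49.4 CPM in endothelial-like cells. Lrp1, a receptor for lipoproteins and proteases, averaged 1730 ± 216 CPM.

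The cells were not uniform. The 5 genes Ebf2, Thbs4, Col15a1, Myoc and Fn1, each detected in a minority of the cells and chosen after their values were seen, were used to describe this in 386 cells without high UMI counts or neuronal RNA. An Ebf2 UMI was found in 59 cells, Thbs4 in 132, Col15a1 in 97, Myoc in 111 and Fn1 in 97. Thbs4 and Myoc were found together in 71 cells, Ebf2 and Fn1 in 29, and Thbs4 and Col15a1 in 9. Median depth was 9717 UMIs in cells with Fn1 and 7844 in those without, 9243.5 and 7766.5 for Thbs4, 8968 and 8011 for Ebf2, 8758 and 7943 for Myoc, and 7810 and 8623 for Col15a1. Because a missing UMI does not show a missing transcript, these are leanings among the cells and not types, and they were not tested.

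Cells with an Ebf2 UMI carried Adgrd1 at 288 CPM against 2.15 CPM in the others, Aspn at 258 against 2.51 CPM, the complement regulator Cd55 at 439 against 17.5 CPM, and Dpt at 179 against 0.358 CPM. Ebf2 and Aspn were also pericyte genes here, at 441 and 418 CPM in pericyte-like cells against 165 and 49.4 CPM over all fibroblast-like cells. Of the 59 cells with an Ebf2 UMI 7 also met the pericyte rule, as did 64 of the 327 without, and leaving these out gave 261 against 2.33 CPM for Aspn and 337 against 2.80 CPM for Adgrd1. Dpt and Pi16 are known markers of fibroblasts around vessels in many organs. Csmd1, a large membrane protein that inhibits complement, was at 1059 and 76.3 CPM. Cells with an Fn1 UMI also led in Adgrd1, Csmd1, Creb5 and Adamts5, and had Pi16 at 478 CPM against 56.0 CPM in the others.

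Cells with a Thbs4 UMI carried Bmp6 at 582 against 7.57 CPM, Crispld1 at 215 against 14.7 CPM, and Bnc2 at 1216 against 299 CPM. Myoc, which encodes myocilin, a secreted protein of the trabecular meshwork and sclera (chromosome 1, 162466718 to 162477265, plus strand), was at 608 CPM in them against 123 CPM in the others. The Myoc cells in turn had Chil1 at 334 against 54.6 CPM and Meox2 at 103 against 1.71 CPM. Cells with a Col15a1 UMI had Ccl11 at 232 against 20.2 CPM and the muscarinic receptor Chrm3 at 586 against 77.5 CPM.

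The make-up varied by mouse. The share of cells with an Ebf2 UMI was 21.7%, 8% and 4.90% in the controls and 14.3%, 18.6% and 27.6% in the dKO mice. For Col15a1 it was 26.1%, 8% and 22.5% in the controls and 18.4%, 23.3% and 46.6% in the dKO mice. The Thbs4 share was 39.1%, 52% and 40.2% in the controls and 44.9%, 27.1% and 20.7% in the dKO mice. Groups overlapped for all 5 genes. S09 had the highest share of Ebf2 and Col15a1 cells and the lowest of Thbs4 cells.

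**Figure D4:**
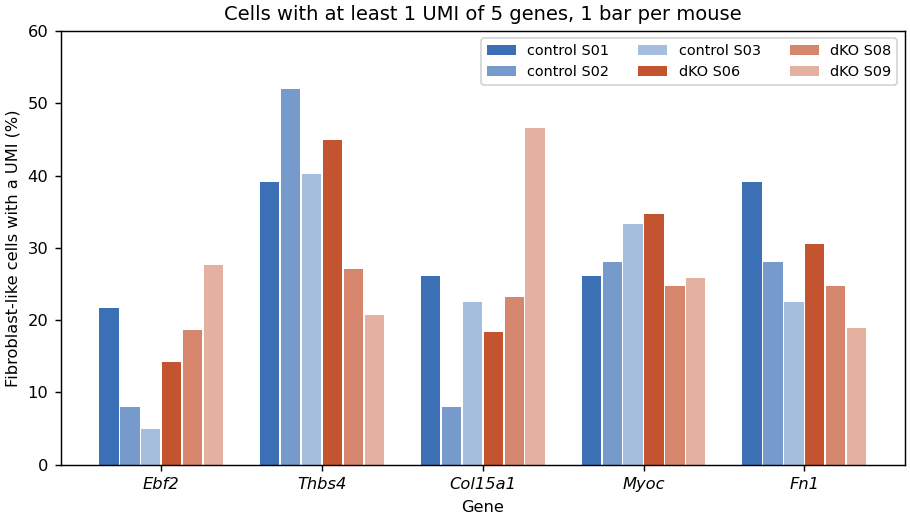
Percentage of fibroblast-like cells with at least 1 UMI of Ebf2, Thbs4, Col15a1, Myoc or Fn1 in each of 3 control and 3 dKO mice. Myoc varies least between mice, and dKO S09 is the highest mouse for Col15a1 (46.6%) and the lowest for Thbs4 (20.7%).

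No gene differed between dKO and control fibroblast-like cells at an adjusted p under 0.05. The comparison asks whether fibroblast-like cells of eyes whose RPE was targeted for loss of both microRNAs differed in their RNA. UMI counts were summed per mouse and fitted with edgeR's quasi-likelihood test on 3 control and 3 dKO mice, with Benjamini-Hochberg adjustment over 7992 genes. In that fit 0 genes were called (0% of those tested), and the lowest adjusted p was 0.9999. At an unadjusted p under 0.05, 267 genes (3.34%) passed, 124 higher (1.55%) and 143 lower (1.79%) in dKO. That count was 813 without control S03, 405 without control S01, 178 without dKO S06 and 158 without dKO S08. DESeq2 and limma-voom also called 0 genes, with 223 and 230 at an unadjusted p under 0.05. The biological coefficient of variation was 0.337. Without the filter on low counts 131 of 22576 genes were called, of which 72 pass that filter and 81 had most of their UMIs in a single mouse. Of the 20 genes of lowest p described next, 8 were called in that fit (Csmd1, Trmt61b, Procr, Cemip, Gm34455, Rassf4, Cdh6 and Cdk11b), with edgeR adjusted p from 0.000134 for Csmd1 to 0.0313 for Cdk11b.

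The genes of lowest p are given as not passing in the fit with the filter. Cemip, a protein needed to break down hyaluronan (chromosome 7, 83582065 to 83735724, minus strand), was at 197, 217 and 327 CPM in the controls and 69.0, 104 and 126 CPM in the dKO mice. The groups did not overlap, as held for 269 of all genes tested in this direction (3.37%). Its log2 fold change was -1.33 ± 0.33 (SE; edgeR unadjusted p = 0.00346, adjusted p = 0.9999), and -1.43 without the 5 large cells. Gm34455, a long noncoding RNA (chromosome 17, 26686205 to 26723912, minus strand), had a log2 fold change of -1.49 ± 0.31, also without overlap. The other genes lower in dKO by lowest p were Tbc1d8 (-1.38 on the log2 scale), Rassf4 (-2.15), Wdr25 (-1.16), Upp2 (-0.89), Rtn1 (-1.10), Htr6 (-1.41), Spata1 (-1.32) and Iqcn (-1.21). Rtn1 is a neuronal reticulon and Htr6 a serotonin receptor. In the controls Rtn1 was at 229, 272 and 112 CPM, and Htr6 at 17.1, 35.4 and 24.3 CPM. Without the cells that carried neuronal RNA, the log2 fold change was -0.73 for Rtn1, -0.45 for Spata1, -0.91 for Tbc1d8 and -1.57 for Htr6. A part of neuronal RNA in these values was not tested.

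In the other direction, Procr, the endothelial protein C receptor (chromosome 2, 155593031 to 155597397, plus strand), was at 17.1, 11.8 and 18.2 CPM in the controls and 47.6, 45.0 and 91.4 CPM in the dKO mice. The groups did not overlap, as held for 361 genes in this direction (4.52%), and the log2 fold change was 1.85 ± 0.41 (edgeR unadjusted p = 0.00161, adjusted p = 0.9999). Csmd1 was at 98.6, 142 and 89.0 CPM in the controls and 184, 332 and 558 CPM in the dKO mice, a log2 fold change of 1.73 ± 0.40. Of its UMIs in the 386 cells described above, 74.3% lay in the cells with an Ebf2 UMI. In cells without one, Csmd1 was at 18.2, 48.2 and 50.3 CPM in the controls and 41.7, 162 and 27.6 CPM in the dKO mice, and the groups overlapped. Procr in the same cells was at 24.3, 16.1 and 17.2 CPM in the controls and 72.9, 62.7 and 117 CPM in the dKO mice, without overlap. Only 13.0% of the Procr UMIs lay in cells with an Ebf2 UMI, so these values repeat most of the counts that chose the gene. Both genes were chosen by lowest p, and their levels in these cells were not tested. The remaining genes higher in dKO by lowest p were Zfp330 (2.07 on the log2 scale), Cdh6 (1.76), Trmt61b (1.78), Cdk11b (1.23), Mrrf (1.62), Mpp7 (0.96), Atp5d (1.44) and Gstm1 (1.18).

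**Figure D5:**
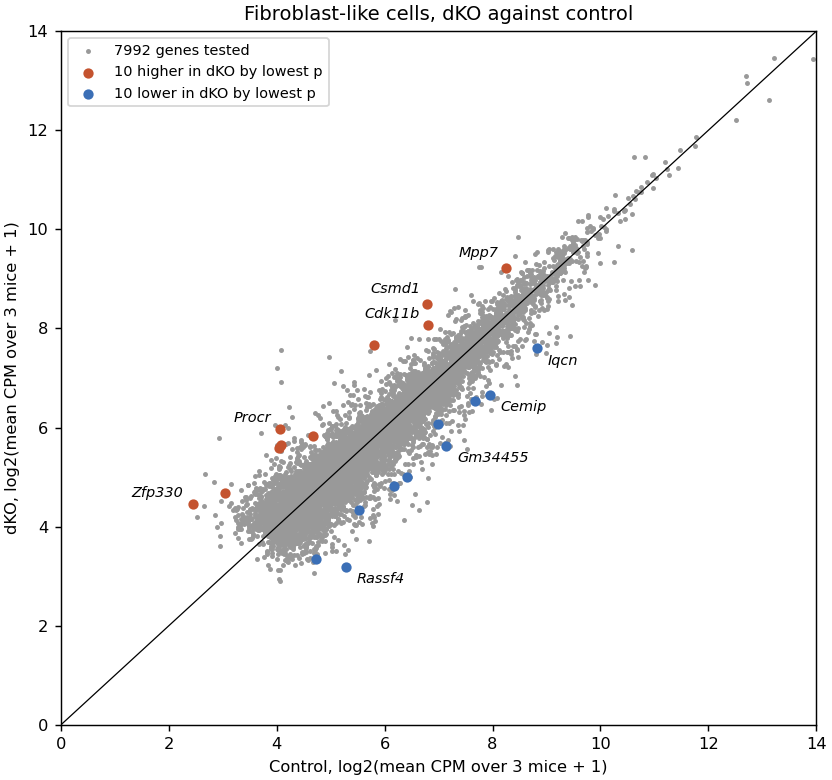
Mean CPM in dKO against control fibroblast-like cells (3 mice each), as log2(CPM + 1), for the 7992 genes tested, with the 10 genes of lowest p in each direction coloured. None passed an adjusted p of 0.05, and Procr (1.85), Csmd1 (1.73), Cemip (-1.33) and Rassf4 (-2.15) are among those named, with log2 fold changes in parentheses.

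The gene lists had 0 members called in either direction. The median log2 fold change was 0.05 for 12 fibrillar and associated collagens, 0.11 for 15 basement membrane genes, 0.03 for 19 elastic fibre genes and -0.04 for 10 genes of activated fibroblasts, beside -0.02 over all genes tested. Without the 5 large cells these medians were -0.09, -0.09, -0.14 and -0.12, so the sign changed for the first 3, beside -0.01 over all genes. The 18 pan-fibroblast genes tested had a median of 0.31, and 0.18 without the large cells. Single large cells weighed on 2 matrix genes. Fbln1, a fibulin of elastic fibres, had a log2 fold change of 1.13 with all cells (edgeR unadjusted p = 0.0216), with S06 at 530 CPM, and 0.45 without the large cells, when S06 was at 236 CPM. Fn1, fibronectin, was at 1016 CPM in S08 with all cells and 301 CPM without them, and its log2 fold change went from 1.53 to 0.21.

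Of 10 chemokine and cytokine genes tested, 1 did not overlap and lay higher in dKO, beside 4.52% of all genes. Il6, the inflammatory cytokine, was at 45.0, 39.4 and 68.8 CPM in the controls and 73.8, 190 and 132 CPM in the dKO mice, a log2 fold change of 1.31 ± 0.41 (edgeR unadjusted p = 0.0120, adjusted p = 0.9999). Gbp2, an interferon-induced GTPase, had a log2 fold change of -0.69. Of 15 clock genes tested, 3 did not overlap and lay higher in dKO (4.52% of all genes did so), namely the nuclear receptor Nr1d2 (0.72), Cry1 (0.87) and Bhlhe40 (0.53). The median of the clock list was 0.10, and its summed level was 1559 to 1992 CPM in the controls and 2101 to 2206 CPM in the dKO mice. Sums also lay apart for TGF-beta, BMP and activin genes (3350 to 3760 against 3831 to 3937 CPM). The same held narrowly for the growth factor list (11930 to 13823 against 13833 to 14937 CPM). Igfbp5 alone averaged 8279 CPM of that list over the mice compared. RPE markers lay apart in the other direction (31.5 to 46.9 against 19.0 to 27.2 CPM). The sums of all other gene and marker lists overlapped between the groups. Summed levels were not tested.

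The hosts of the deleted microRNAs and other genes named by the study did not pass either. Trpm3 had a log2 fold change of 0.30 ± 0.63 and Trpm1 of 0.73 ± 0.72, and without the large cells they were 0.13 and 0.05. Mlec, a lectin of the endoplasmic reticulum, was at -0.30 ± 0.36 and Adamts10, a matrix protease, at -0.02 ± 0.37. Gdf11 did not reach the filter on low counts. The 5 rod markers all had negative log2 fold changes, with a median of -1.24. Of these, 3 were lower at an unadjusted edgeR p under 0.05, beside 1.79% of all genes tested. Among the 3 were Sag (-1.43) and Pde6b (-1.58), at an unadjusted edgeR p of 0.0290 and 0.0196. Control S01 had Sag at 872 CPM with all its cells and 386 CPM without the large ones, and the median of the rod markers was then -0.72.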

How the data were processed

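Single-cell RNA was measured in retinas of 9 mice with a combinatorial barcoding kit. The authors aligned the reads to GRCm39, counted UMIs per gene and cell, filtered cells and genes, and deposited these counts unnormalised as 1 matrix of all samples. The submitters' processing notes name R 4.2.2 and Seurat 4.3.0. The deposited annotation column held the barcoding well and not a cell type, so cells were chosen by marker genes, which the report gives. The members, gene lists and rules were chosen with earlier results of these data known.

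Groups came from the sample titles. Nothing in the labels gives separate cultures or litters beyond the mouse, and no doublet caller was run. Raw counts were summed per mouse over fibroblast-like cells in mice with 10 or more of them and tested with edgeR 4.0.16 (quasi-likelihood, TMM scaling, filterByExpr) in R 4.3.3. The rule's 5 marker genes were left out of the test with the other genes the rule used. DESeq2 1.42.0 and limma 3.58.1 served as alternatives, and the test was first tried on simulated data. Shares were compared by exact permutation tests in scipy 1.17.1, and intervals are exact binomial at 95%. Named genes were members of the lists with at least 50 CPM over the pooled cells, the 20 largest ratios to other cells, the rule's genes, and, as no gene passed, the 10 genes of lowest p in each direction. Genes outside these groups were chosen after their values were seen. Gene positions are those of GRCm39. Compared mice gave 253973 to 1154913 UMIs from fibroblast-like cells, which limits what low genes can show. Some genes of the lists are not reported here.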

Additional observations from a re-analysis of the deposited data

How the results depend on the processing

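The count of genes called between dKO and control was 0 in the reported fit and stayed 0 with DESeq2, limma-voom, library size scaling, S06 and S07 summed as 1 mouse, Xist as a covariate, at least 4 of 5 markers, cells of other rules left out, thinned counts, and, both chosen after seeing the data, without cells over 30000 UMIs and without cells with neuronal RNA. The sum of S06 and S07 adds only the 1 fibroblast-like cell of S07 to those of S06, so it could hardly change the count. Leaving out 1 mouse at a time also gave 0 called, with a lowest adjusted p of 0.0878 by edgeR without control S03. Without the filter on low counts 131 genes were called, 72 of which pass it and 13 of which are in the gene lists, and 60 of the 131 had most of their UMIs in cells over 30000 UMIs. The share of fibroblast-like cells (dKO minus control) ranged from -0.384 to 1.03 percentage points when 1 mouse was left out. It reversed without control S04 (-0.0512) and without dKO S08 (-0.384), and the cause was not tested. No paired analysis was possible because replicate numbers are not shared between control and dKO mice. Of 22 gene levels, 2 (Edn3 and Trpm3) moved by more than the spread between mice with the cells over 30000 UMIs included, and 0 did with at least 4 of 5 markers, without cells of other rules or without cells with neuronal RNA. Depth limits genes below the filter, and S01 and S02 rest on 28 and 27 cells.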
